A study of Mus musculus with 18 samples.

Results

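The regions described here are 43 bins of 500 kb, on chromosomes other than that of the bait, in which the contact signal of the Ifng gene was high in 3T3-L1 cells. They were chosen by the values of both Ifng 3T3-L1 arrays: the mean log2 ratio of a bin with 20 or more probes, minus the array's median of probes off chromosome 10, had to be 0.2 or more in each array. Of 4047 such bins on chromosomes 1-9, 12-15 and 17-19, 43 met the limit, and 5026 bins in all had 20 or more probes. The 3T3-L1 values of these bins are therefore a description with no test, and the T cell arrays, which had no part in the choice, are where the bins were followed.

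Contacts were measured on 18 arrays, in 9 groups of 2, each with 384942 probes at a median spacing of 5037 bp. In the Ifng 4C set, the groups were naïve CD4 T cells, Th1 cells, Th2 cells, Th1 cells lacking Stat4 and 3T3-L1 cells, a line of mouse fibroblasts that can turn into adipocytes. In the Il4 4C set, the groups were naïve CD4 T cells, Th1 cells, Th2 cells and Th2 cells lacking Stat6. All groups of T cells carry the label of primary CD4+ cells, no group carries a label of a further treatment, and the knockouts are the only genotype given. The loss of Stat4 or Stat6 could not be checked, because these arrays read DNA contacts and not expression.

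4C takes 1 genomic site, the bait, and recovers the DNA fragments that were ligated to it after crosslinking, so that a high signal marks DNA that lay near the bait in many nuclei. Most recovered fragments come from the bait's own chromosome, and signal on other chromosomes is weaker and spread over broad stretches. Ifng encodes the signature cytokine of Th1 cells, and STAT4, which is activated by IL-12, is needed for its full induction there. Il4 encodes the signature cytokine of Th2 cells and depends on STAT6 in the same way. Fibroblasts do not make either cytokine, so 3T3-L1 cells serve as a non-T-cell setting for the Ifng bait.

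The labels leave several points unsettled. The protocol text is written for cells that grow attached and lists Lcn2, Arrdc2 and Anxa5 as baits, and the characteristics of the 3T3-L1 samples call them T cells. Groups were taken from titles and source names. The design text counts 19 arrays, of which 1 came from a pool of 2 biological replicates and is not named. Separate mice or cultures are not stated, so p-values measure the spread between these arrays only. Coordinates are those of mm8, which was inferred from the probe positions: no chromosome had a probe past its mm8 end. No sequence is printed, because no genome of that build was used here.

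Some arrays stand apart from the rest. Over the 4047 bins, the 2 Ifng Th1 arrays correlated at r = 0.17, and Th1 replicate 1 correlated with the other 15 T cell arrays at -0.043 to 0.20. Ifng Th1 replicate 2 correlated at 0.54 with Il4 Th2 replicate 2, above its correlation with its own replicate, and whether labels were exchanged was not tested. The 2 3T3-L1 arrays correlated at 0.45. 3T3-L1 replicate 1 correlated with the 8 Ifng T cell arrays at -0.12 to -0.025, and replicate 2 at -0.14 to 0.32, while T cell arrays of different baits reached 0.83. All these correlations are over the same 4047 bins, which share probes and base composition, and describe the arrays. The highest bin of chromosome 10 lay within chr10:116500001-118500000 in all 10 Ifng arrays, though not at the same bin in each, and its level was 2.54 ± 0.12 on the log2 scale (SD, n = 2) in 3T3-L1 cells, against group means of 2.34 to 3.73 in the Ifng T cell groups. The 3T3-L1 arrays bear other serial series than the T cell arrays, so cell type and array series cannot be told apart.

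The bins lay mainly towards the ends of chromosomes. Mouse chromosomes have the centromere at 1 end, where coordinates start, and the other end is the telomere of the long arm. Of the 43 bins, 35 (81.4%) were in the last 25% of their chromosome's length, against 25.9% of all 4047 bins. In the last 10% were 26 (60.5%), against 10.3%. Their median position was 93.6% of the chromosome's length, against 51.8% over all bins, and 3 were in the first 50%. The share in the last 25% was 72.6% to 87.5% when the limit, the probe minimum, the bin statistic or the array was changed. Position was not part of the rule, but adjacent bins share signal and are not independent.

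**Figure D1:**
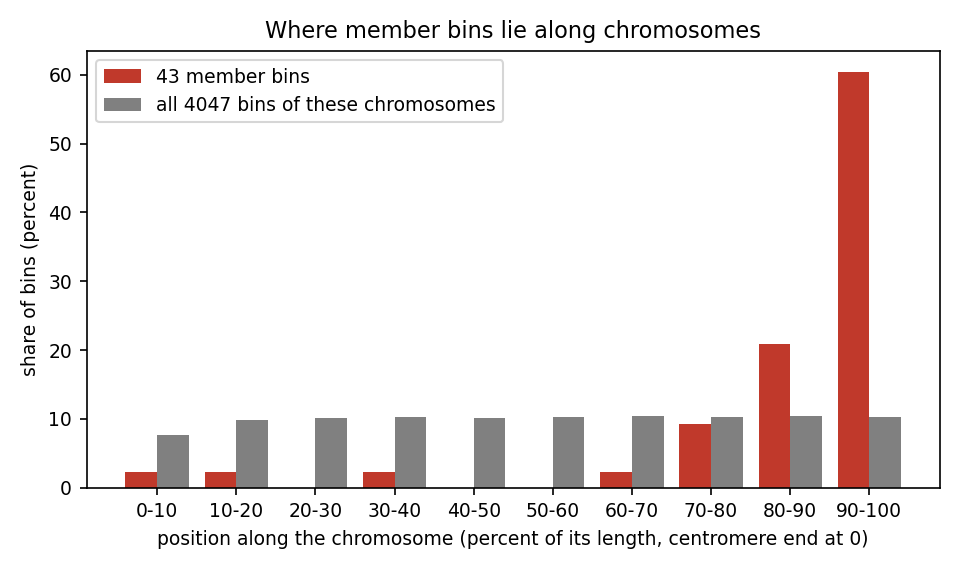
Share of bins (percent, vertical axis) in steps of 10% of the chromosome's length (horizontal axis, centromere end at 0), for the 43 bins high in 3T3-L1 cells (red) and all 4047 bins (grey). The last 10% holds 60.5% of the 43 bins and 10.3% of all bins.

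They were also unevenly spread over chromosomes. Chromosome 1 held 12 (3.14% of its 382 bins), chromosome 5 held 8 (2.76%), chromosomes 2 and 6 held 6 each, chromosome 4 held 3, and chromosomes 8, 12, 13 and 19 held 2 each. The other 7 chromosomes of the rule held none. Adjacent bins form 31 runs, of which 25 are single bins, 2 have 2 bins, 2 have 3 and 2 have 4. Outside the rule, 32 of 190 bins (16.8%) of chromosome 16 met the same limit, as did 76 of 254 on the bait chromosome 10, and none of 238 on chromosome 11 or of 292 on chromosome X. Among the 4047 bins, none was at -0.2 or less in both 3T3-L1 arrays.

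The stretch with the most bins of the list was the end of chromosome 1, where the 20 Mb of chr1:177000001-197000000 held 12 of the 43 bins. Of its 40 bins, 23 were at 0.1 or more in both 3T3-L1 arrays. The medians of these 40 bins were 0.14 and 0.15 in the 3T3-L1 arrays and 0.024 to 0.093 in the 8 Ifng T cell arrays. The highest of all 43 bins, chr1:192000001-192500000 in band 1qH6, stood at 0.47 and 0.49 in 3T3-L1 cells. In the T cell arrays of the Ifng bait it was at 0.075 and 0.066 in naïve cells, 0.0018 and 0.070 in Th1, 0.16 and 0.0997 in Th2 and 0.13 and 0.00 in the Stat4 knockout. No T cell array reached even the lower of its 3T3-L1 values.

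The run around that bin, chr1:190500001-192500000, was 1 of the 2 longest, with 4 bins at a mean of 0.31 and 0.36 in the 3T3-L1 arrays. Over its 2 Mb the Ifng T cell arrays had means of 0.0011 to 0.13. A second run on the same arm, chr1:177000001-178500000 in bands 1qH3 and 1qH4, had 3 bins at 0.35 and 0.33. There the 8 Ifng T cell arrays lay between -0.0098 and 0.052, close to the array centre. The pair chr1:188500001-189500000 in 1qH5 had 0.24 and 0.32 in 3T3-L1 cells and -0.021 to 0.076 in the Ifng T cell arrays. The remaining 3 runs of chromosome 1 are single bins at 187500001, 195500001 and 196500001, with 3T3-L1 values between 0.22 and 0.33.

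Chromosome 2 had its 6 bins in the distal bands 2qH2 and 2qH4. The run chr2:178000001-180000000 had 4 bins at 0.29 and 0.30 in 3T3-L1 cells. Its means in the Ifng T cell arrays were 0.038 and 0.12 in naïve cells, 0.020 and 0.018 in Th1, 0.15 and 0.10 in Th2 and 0.061 and 0.12 in the Stat4 knockout. This run was above the centre in every T cell array of the bait, at levels below those of 3T3-L1 cells. The median of all bins was above the centre in these arrays too. In Th1 that median was 0.042 and 0.031, above the run, while in the arrays of the other Ifng T cell groups the run was above it. The single bin chr2:174500001-175000000 was at 0.26 and 0.37 in 3T3-L1 cells and had the highest mean of the 43 bins over the 8 Ifng T cell arrays, 0.16. The last bin of chromosome 2 on the list, at 161000001, was at 0.24 in both 3T3-L1 arrays.

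Chromosome 5 had 8 bins, in bands 5qE5 to 5qG3. The run chr5:141000001-142500000 in 5qG2 had 3 bins at 0.32 and 0.31 in 3T3-L1 cells. In the Ifng T cell arrays its means were 0.094 and 0.087 in naïve cells, -0.0068 and -0.0057 in Th1, 0.12 and 0.12 in Th2 and 0.074 and 0.13 in the Stat4 knockout. Both Th1 arrays were below the other 6 T cell arrays of the bait over this run. The single bin chr5:150000001-150500000 in 5qG3 was at 0.38 and 0.31 in 3T3-L1 cells and at 0.015 to 0.14 in the Ifng T cell arrays. The single bins at 105000001, 128000001, 133500001 and 146000001 had 3T3-L1 values between 0.20 and 0.36.

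Chromosome 6 had 6 single bins, in 2 stretches of 6 and 2.5 Mb. The highest single-bin run of all was chr6:111500001-112000000 in 6qE3, at 0.38 and 0.40 in 3T3-L1 cells. In the Ifng T cell arrays this bin was at 0.00089 and -0.11 in naïve cells, -0.018 and -0.021 in Th1, -0.015 and -0.039 in Th2 and 0.026 and 0.044 in the Stat4 knockout. Its mean over these 8 arrays, -0.017, was the lowest of the 43 bins, so the run with the highest 3T3-L1 mean was the lowest in T cells. The other 5 bins of chromosome 6 had 3T3-L1 values between 0.20 and 0.32 and T cell means of 0.015 to 0.056.

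The other chromosomes had isolated bins. Chromosome 4 had bins at 61000001 (band 4qB3), 127500001 and 152000001, chromosome 8 at 111000001 and 115000001, and chromosome 12 at 88500001 and 117500001. Their 3T3-L1 values were between 0.21 and 0.30. The pair chr13:96500001-97500000 in 13qD1 had 0.23 and 0.32 in 3T3-L1 cells and 0.0023 to 0.21 in the Ifng T cell arrays, so all 8 T cell means of the pair were below both 3T3-L1 values. Chromosome 19 had bins at 3000001 and 8000001, near its centromere end, with 3T3-L1 values between 0.22 and 0.30; these and chr4:61000001-61500000 are the 3 bins in the first 50% of a chromosome.

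The limit of 0.2 cut through a continuous range of values. The bins just inside it were chr5:133500001-134000000 at 0.20 and 0.27, chr6:141000001-141500000 at 0.20 and 0.21, and chr2:179500001-180000000 at 0.20 and 0.24. Just outside were chr2:170000001-170500000 at 0.25 and 0.197, chr8:115500001-116000000 at 0.197 and 0.199, and chr3:153000001-153500000 at 0.196 and 0.209. In 3T3-L1 replicates 1 and 2 alone, 84 and 104 bins reached the limit, so each array also had bins that the other did not share. The level rests on the upper part of the probe values: with the median of the probes in place of their mean, 7 bins reached the limit. Of the probes in the 43 bins, 16.1% and 16.0% were among the highest 5% of the probes of the 3T3-L1 arrays, against 3.82% to 5.44% in the T cell arrays.

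Averaged over the 8 Ifng T cell arrays, the bins lay close to the level of all 4047 bins, which are not matched for position. In the 3T3-L1 arrays the median of the 43 bins was 0.25 in replicate 1, between 0.20 and 0.47, and 0.28 in replicate 2, between 0.21 and 0.49. In the Ifng T cell arrays the median was 0.0088 and 0.045 in naïve cells, 0.0075 and 0.022 in Th1, 0.057 and 0.065 in Th2, and 0.081 and 0.062 in the Stat4 knockout. The medians of all 4047 bins in the same arrays were 0.011 and 0.0050 in naïve cells, 0.042 and 0.031 in Th1, 0.044 and 0.042 in Th2, and 0.060 and 0.058 in the Stat4 knockout. In the 2 Th1 arrays 10 and 16 of the 43 bins were above the array's own median, against 21 to 28 in the other Ifng T cell arrays. Averaged over the 8 Ifng T cell arrays, the median of the 43 bins was 0.040, against 0.037 over all bins, and the single means ran from -0.017 to 0.16. No bin of the 43 was as high in the mean of the T cells as the limit it passed in 3T3-L1 cells. Such means were rarely large in any bin: the highest of all 4047 was 0.27, and the share of all bins at the limit is not given.

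**Figure D2:**
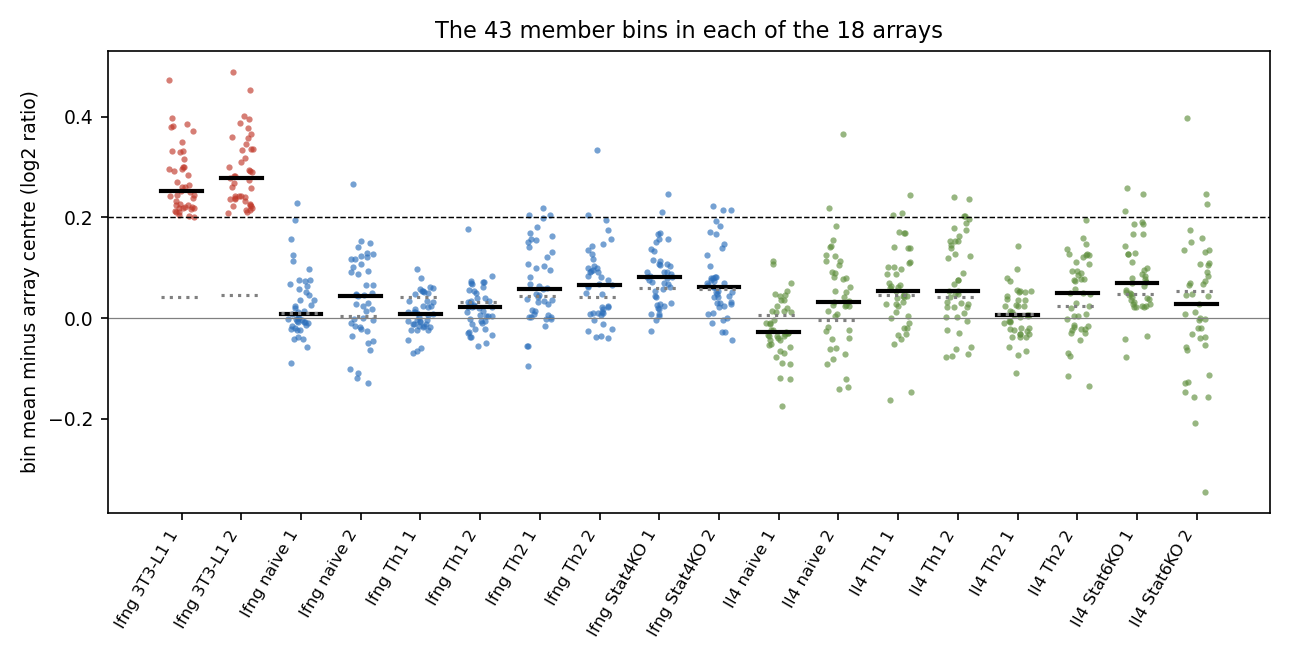
Each point is 1 of the 43 bins in 1 array, as the bin mean minus the array centre (log2 ratio, vertical axis); black bars mark the median of the 43 bins, grey dotted bars that of all 4047 bins, and the dashed line the limit of 0.2. Both 3T3-L1 arrays lie at or above the limit by the choice of the bins, and the medians of the 16 T cell arrays lie between -0.027 and 0.081.

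The ranges of fibroblasts and T cells seldom overlapped in these bins. In 38 of the 43 bins (88.4%) both 3T3-L1 values were above all 8 Ifng T cell values, against 8.03% of all 4047 bins, a count that the choice of the bins largely fixes. At least 1 Ifng T cell array reached 0.2 in 7 of the 43 bins (16.3%), and in 851 of the 4047 bins. Both arrays of a group reached it for 1 bin in naïve cells (4.20% of all bins), for 1 in the Stat4 knockout (1.06%) and for none in Th1 (0.0247%) or Th2 (1.14%). For the Il4 bait both arrays reached it for 2 bins in Th1 (5.76% of all bins) and for none in naïve cells (1.38%), Th2 (0.395%) or the Stat6 knockout (4.03%). No run had a mean of 0.2 or more in all 4 Ifng T cell groups. The Th1 arrays nearly fix this outcome, since both reached 0.2 in only 0.0247% of all bins.

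**Figure D3:**
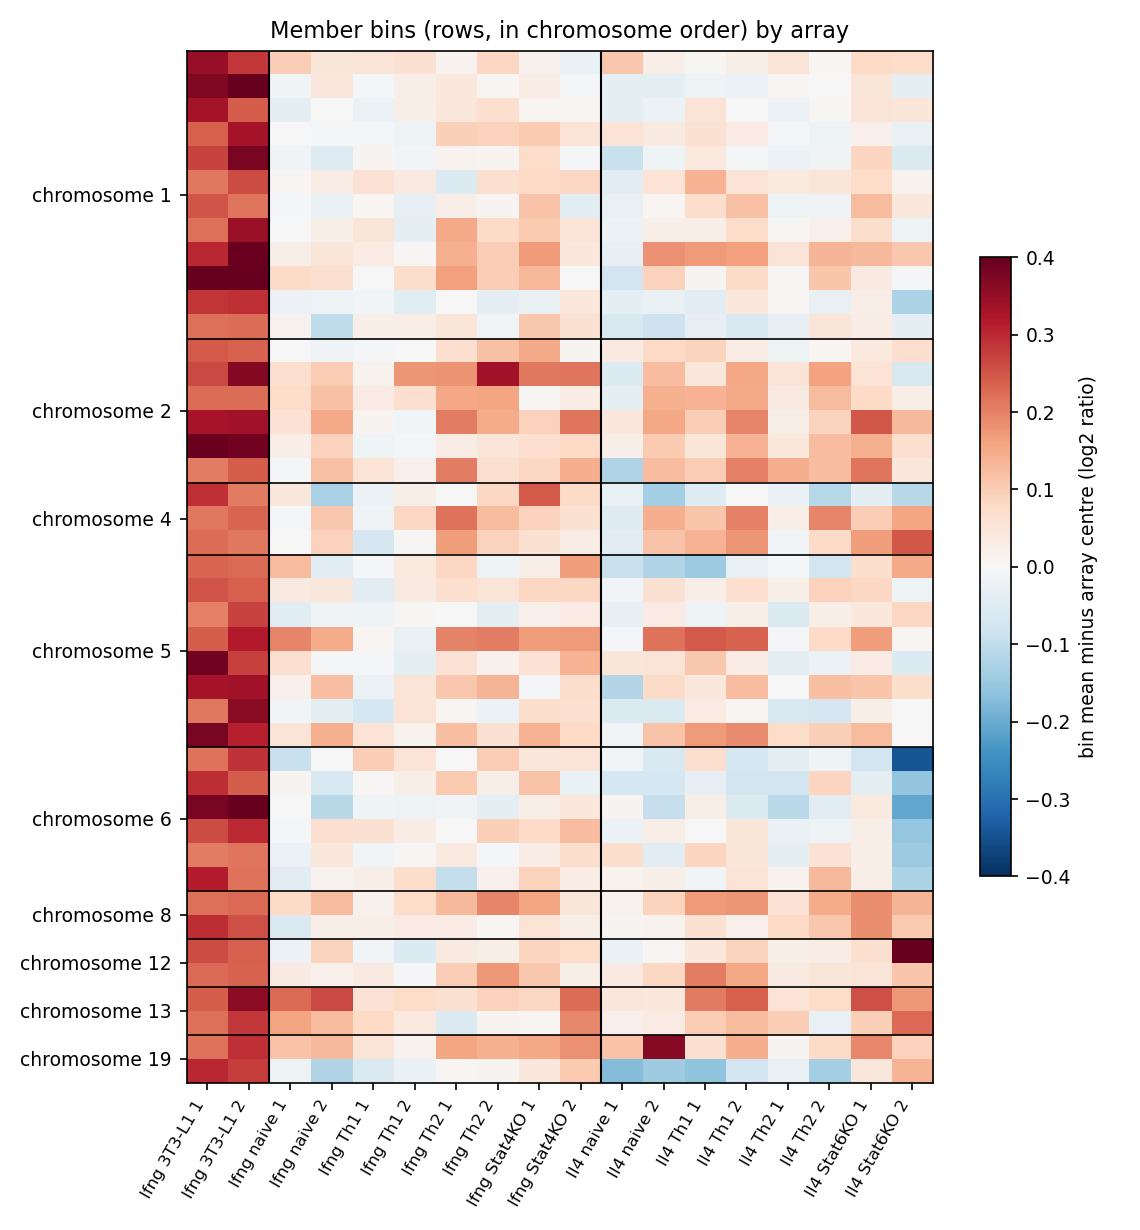
The 43 bins (rows, in chromosome order) in the 18 arrays (columns), coloured by the bin mean minus the array centre (log2 ratio, scale from -0.4 to 0.4). The 2 columns of 3T3-L1 are high throughout; in T cells single bins of chromosomes 2, 5, 13 and 19 were raised, and the 6 bins of chromosome 6 were low in Il4 Stat6 knockout replicate 2.

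The level of each bin was tested against the array centre within each T cell group, with limma on all 5026 bins and Benjamini-Hochberg adjustment at 0.05. Shares called are given beside those of the 4047 bins that could have met the rule, which leave out the chromosomes of the baits. In naïve cells of the Ifng bait 8 of the 43 bins (18.6%) were above the centre, against 23.5% of the 4047, in Th2 15 (34.9%, against 22.6%) and in the Stat4 knockout 12 (27.9%, against 28.2%). None of the 43 was below it in these groups (7.81%, 0.42% and 0.0494% of the 4047). In Th1 none passed, with 1 at an unadjusted p under 0.05 (1.09% of the 4047 passed). The shares in naïve cells, Th1 and the Stat4 knockout thus lay near those of the 4047 bins. With all arrays in the fit the share in Th2 was above that of the 4047 bins, and these differences were not tested. In at least 1 of the 4 groups 21 bins passed (48.8%), against 41.0% of the 4047 bins, 4 passed in 3 groups and none passed in all 4. The counts rest on few arrays: without naïve replicate 2 the naïve count was 2, and without naïve replicate 1 or any 1 array of Th1 or Th2 it was 5. Without Th2 replicates 1 and 2 the Th2 count was 4 and 6, and without Stat4 knockout replicates 1 and 2 that count was 6 and 5. With the median of the probes, none passed in the Stat4 knockout. The shares of the 4047 bins under these settings are not given here, so a fall in the counts need not be particular to the 43 bins.

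The highest mean levels over the Ifng T cell arrays were those of 5 bins, 3 of which are given here and 2 with the comparisons that follow. The bin chr2:174500001-175000000 in 2qH4 was at 0.064 and 0.10 in naïve cells, 0.013 and 0.18 in Th1, 0.18 and 0.33 in Th2 and 0.21 and 0.22 in the Stat4 knockout. It was above the centre in Th2 (0.26, SE 0.043, adjusted p = 0.00086) and in the Stat4 knockout (0.21, SE 0.043, adjusted p = 0.0028), and it holds the highest single Ifng T cell value of the 43 bins. The bin chr19:3000001-3500000 in 19qA, the first measured bin of its chromosome, was at 0.11 and 0.13 in naïve cells, 0.051 and 0.013 in Th1, 0.16 and 0.14 in Th2 and 0.16 and 0.18 in the Stat4 knockout. It passed in 3 of the 4 groups, among them naïve cells (adjusted p = 0.0084) and the Stat4 knockout (adjusted p = 0.0016), and all 8 Ifng T cell arrays were below its 3T3-L1 values of 0.22 and 0.29. The bin chr2:178500001-179000000 was at 0.058 and 0.15 in naïve cells, 0.011 and -0.012 in Th1, 0.20 and 0.15 in Th2 and 0.091 and 0.21 in the Stat4 knockout. It passed in 3 of the 4 groups too, among them naïve cells (adjusted p = 0.046) and Th2 (adjusted p = 0.0044). Th1 had the lowest group mean in the last 2 of these bins, and naïve cells had it in the first.

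At the other end of the order, 4 bins had a mean over the 8 Ifng T cell arrays below 0. After chr6:111500001-112000000 these were chr1:195500001-196000000 at -0.016, chr19:8000001-8500000 at -0.0077 and chr5:133500001-134000000 at -0.0063. The fifth lowest, chr1:188500001-189000000, had 0.0040. The 3T3-L1 means of these 5 bins were between 0.24 and 0.39, and they include both the bin nearest the limit, chr5:133500001-134000000, and the highest single-bin run. Over the 43 bins the 3T3-L1 mean and the Ifng T cell mean correlated at r = 0.012, within a list cut on 1 of the 2 values.

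Differences between the T cell groups were tested in 11 comparisons, and 2 of the 43 bins accounted for all 6 calls. From naïve to Th1, 2 of the 43 bins were lower (4.65%, against 4.32% of the 4047 bins) and none was higher (3.19%). Between Th1 and Th2, 1 was lower in Th1 (2.33%, against 0.272%) and none higher (0.0247%). From naïve to Th2 none passed in either direction (0.247% of the 4047 bins higher, 1.31% lower), with 4 higher and 2 lower at an unadjusted p under 0.05. None passed for the Stat4 knockout against Th1 (0.222% of the 4047 bins higher, none lower), against naïve cells (2.00% and 1.01%) or against Th2 (0.173% and none). At an unadjusted p under 0.05, 7 bins were higher in the knockout than in Th1, 3 were higher than in naïve cells and 1 was lower than in Th2. Without naïve replicate 1, 1 bin passed against naïve cells. These comparisons share arrays, so their results are not independent of each other. The naïve and Th2 arrays of the Ifng bait are of different serial series, so cell type and series cannot be told apart between them.

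The bin chr5:141000001-141500000 in 5qG2 was low in Th1 cells of the Ifng bait. It was at 0.19 and 0.15 in naïve cells, 0.0093 and -0.029 in Th1, 0.199 and 0.205 in Th2 and 0.168 and 0.171 in the Stat4 knockout, with 0.24 and 0.32 in 3T3-L1 cells. Both Th1 arrays were below all 6 other T cell arrays of the bait. The 3 groups other than Th1 were above the array centre (adjusted p = 0.00051 to 0.0017). The difference of Th1 from naïve cells was -0.18 (SE 0.045, adjusted p = 0.023) and that from Th2 was -0.21 (SE 0.045, adjusted p = 0.019). The Stat4 knockout was above Th1 by 0.18 (SE 0.045), which did not pass (adjusted p = 0.073). Leaving out either array of naïve cells or of Th1 ended the Th1 against naïve call (adjusted p = 0.056 to 0.125), and leaving out any array of Th1 or Th2 ended the Th1 against Th2 call (0.078 to 0.203). Th1 replicate 1 shares its array serial series with the naïve arrays, and Th1 replicate 2 shares its series with the Th2 arrays. With the series as a block each change was therefore that of a single Th1 array, -0.16 from naïve cells and -0.23 from Th2. The 2 Th1 arrays had the narrowest spread of the Ifng T cell arrays, with an SD over the 4047 bins of 0.048 and 0.055, against 0.071 to 0.13 in the other 6. With arrays scaled by their spread neither change passed (-0.15, adjusted p = 0.124, and -0.22, adjusted p = 0.089). The Th1 against naïve call also ended with quantile normalization (adjusted p = 0.092), and the Th1 against Th2 call with extreme probes or the bait chromosomes left out (0.051 and 0.110). Both Stat4 knockout arrays are of a series of their own, so genotype and series cannot be told apart there.

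The bin chr13:96500001-97000000 in 13qD1 was high in naïve cells. It was at 0.23 and 0.27 in naïve cells, 0.059 and 0.074 in Th1, 0.060 and 0.093 in Th2 and 0.082 and 0.22 in the Stat4 knockout, with 0.24 and 0.36 in 3T3-L1 cells. Its level passed in naïve cells (adjusted p = 0.00016) and in the Stat4 knockout (adjusted p = 0.0075). Naïve replicate 2 was above 3T3-L1 replicate 1, and naïve cells were the only T cell group of the Ifng bait with both arrays at 0.2 or more here. The bin fell by 0.18 from naïve to Th1 (SE 0.052, adjusted p = 0.043), and its change to Th2 of -0.17 (SE 0.052) did not pass (adjusted p = 0.095). The neighbouring bin chr13:97000001-97500000 was at 0.16 and 0.13 in naïve cells, 0.080 and 0.039 in Th1 and -0.055 and 0.010 in Th2, and its changes did not pass. Leaving out any 1 array of naïve cells, Th1 or Th2 ended the Th1 against naïve call (adjusted p = 0.054 to 0.227). With the serial series as a block, which leaves Th1 replicate 1 alone against naïve cells, the change was -0.19. It was -0.068 with the median of the probes. With arrays scaled by their spread it was -0.074 and with quantile normalization -0.11, and neither passed (adjusted p = 0.406 and 0.353), nor did the change of -0.13 with extreme probes left out (adjusted p = 0.110).

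**Figure D4:**
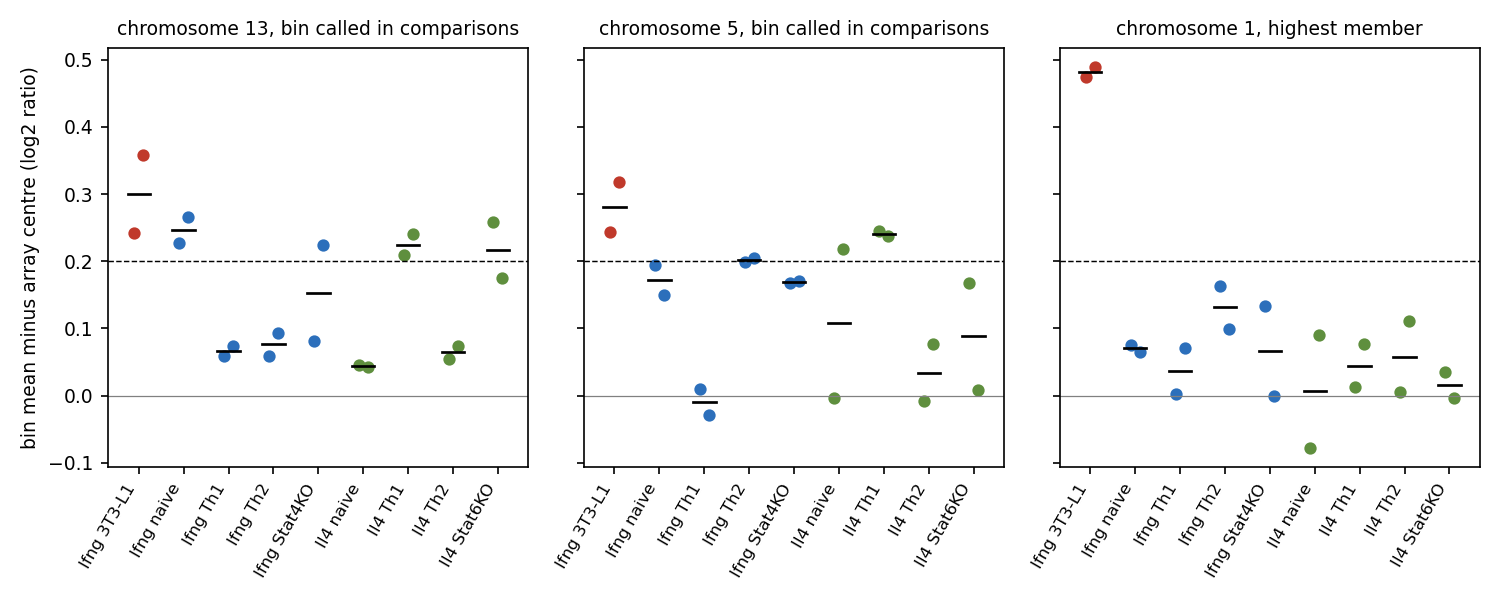
The 2 bins with a called change and the highest bin of the list in the 9 groups (points, single arrays; bars, group means; vertical axis, bin mean minus array centre as log2 ratio; dashed line, limit of 0.2). The bin of chromosome 13 was at 0.23 and 0.27 in Ifng naïve cells and at 0.046 and 0.043 in Il4 naïve cells, that of chromosome 5 was low in Ifng Th1, and that of chromosome 1 was at 0.47 and 0.49 in 3T3-L1 cells.

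Over the 43 bins together, the median differences between groups were small. The median change of the 43 bins from naïve to Th1 was -0.012, against 0.023 over the 4047 bins, and from Th1 to the Stat4 knockout 0.057, against 0.022. Between Th1 and Th2 it was -0.052, against -0.0042, and 10 of the 43 (23.3%) were higher in Th1, against 47.3% of all bins. From naïve to Th2 it was 0.036, against 0.030. The Th1 arrays enter 3 of these comparisons, and they are those with the low correlation between replicates.

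For the Il4 bait, on chromosome 11, the same bins had medians near the array centre too. Averaged over the 8 Il4 arrays, their median was 0.041, against 0.023 over all bins, a wider gap than for Ifng (0.040 against 0.037). This difference between the baits was not tested. The medians of the 43 bins were -0.027 and 0.033 in naïve cells, 0.054 and 0.054 in Th1, 0.0055 and 0.049 in Th2 and 0.069 and 0.028 in the Stat6 knockout. Above the centre were 1 bin in naïve cells (2.33%, against 4.55% of the 4047 bins), 7 in Th1 (16.3%, against 17.5%), none in Th2 (0.247% of the 4047, with 3 of the 43 at an unadjusted p under 0.05) and 7 in the Stat6 knockout (16.3%, against 16.1%), where 1 was below it (0.198%). In naïve cells (0.148%) and Th1 (0.124%) none was below it. Without Il4 Th1 replicates 1 and 2 the Th1 count was 1 and 0, while without either Il4 naïve array it was 11. Without Stat6 knockout replicate 1 or 2 the Stat6 knockout count was 1, and without either Il4 Th2 array it was 4. For the counts with an array left out, the shares of the 4047 bins are not given here. Over the 43 bins the Ifng T cell mean and the Il4 mean correlated at r = 0.71, and over the 4047 bins at 0.86. Arrays of both baits share probes and cell types.

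Several bins with high Ifng levels were also above the centre for Il4. The bin with the highest Ifng T cell mean, chr2:174500001-175000000, passed in no Il4 group. The bin chr13:96500001-97000000 was at 0.21 and 0.24 in Il4 Th1 cells (adjusted p = 0.0037) and at 0.26 and 0.17 in the Stat6 knockout (adjusted p = 0.0065). The bin chr5:141000001-141500000 was at 0.24 and 0.24 in Il4 Th1 cells (adjusted p = 0.015), and these are the 2 bins with both Il4 Th1 arrays at 0.2 or more. The bin chr8:111000001-111500000 in 8qD3 was at 0.169 and 0.175 in Il4 Th1 cells (adjusted p = 0.016), and for Ifng it was above the centre in Th2 at 0.13 and 0.195 (adjusted p = 0.0055). The bin chr19:3000001-3500000 was the 1 bin to pass in Il4 naïve cells, at 0.11 and 0.37 (adjusted p = 0.027), and without Il4 naïve replicate 2 none passed.

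A single Il4 array had low values on chromosome 6. In Stat6 knockout replicate 2 the 6 bins of that chromosome were between -0.35 and -0.13, while in replicate 1 they were between -0.077 and 0.039. The bin chr6:106000001-106500000 passed as below the centre in the Stat6 knockout (-0.21, SE 0.059, adjusted p = 0.033). All bins of chromosome 6 had a median of 0.015 in replicate 2, and the bin chr12:88500001-89000000 had the highest T cell value of the 43 bins there, 0.40, against 0.064 in replicate 1. Both Stat6 knockout arrays are of a serial series of their own among the Il4 arrays.

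The baits were compared within a cell type in a joint fit of the 16 T cell arrays. In naïve cells 1 of the 43 bins was higher for Ifng (2.33%, against 1.36% of the 4047 bins) and none for Il4 (0.0988%). It was chr13:96500001-97000000, at 0.23 and 0.27 for Ifng and 0.046 and 0.043 for Il4, a difference of 0.21 (SE 0.051, adjusted p = 0.015). In Th1 cells 1 bin was lower for Ifng (2.33%, against 2.08%) and none higher (0.222%). It was chr5:141000001-141500000, at 0.0093 and -0.029 for Ifng and 0.24 and 0.24 for Il4, a difference of -0.25 (SE 0.066, adjusted p = 0.034). In Th2 cells none passed (0.0494% of the 4047 bins higher, none lower), with 2 higher for Ifng at an unadjusted p under 0.05. Without Ifng naïve replicate 2 the naïve call was lost (adjusted p = 0.15), as it was without either Il4 naïve array (0.060 and 0.061). Without Il4 naïve replicate 1 another bin passed instead, chr19:3000001-3500000, which was lower for Ifng by 0.24 against the 1 Il4 array left. The naïve call was also lost with arrays scaled, quantile normalization, the median of the probes, extreme probes or the bait chromosomes left out, or the groups alone in the fit (adjusted p = 0.088 to 1.00). Without 1 Th1 array of either bait the Th1 call was lost (0.119 to 0.190). The Th1 call was also lost without an Ifng Th2 or Stat4 knockout array (0.051 and 0.052) and with the median of the probes or the bait chromosomes left out (0.145 and 0.073), and without either Il4 naïve array 2 bins passed.

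The step from naïve to Th1 differed between baits in 1 of the 43 bins. In chr13:96500001-97000000 the signal fell for Ifng, from 0.23 and 0.27 to 0.059 and 0.074, while the Il4 arrays had 0.046 and 0.043 in naïve cells and 0.21 and 0.24 in Th1. The difference of the 2 changes was -0.37 (SE 0.073, adjusted p = 0.0065), and it passed with each of the 16 arrays left out in turn. It did not pass with arrays scaled by their spread, with quantile normalization, with the median of the probes or with extreme probes left out (adjusted p = 0.110 to 0.269). Of the 4047 bins, 1.16% passed in this direction and none in the other. Without Il4 naïve replicate 2 a second bin passed, which made 2. For the step from naïve to Th2 none of the 43 passed (0.0247% higher and 0.198% lower of the 4047 bins), with 3 higher and 1 lower at an unadjusted p under 0.05, and 1 did without Il4 naïve replicate 1.

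Around the bins, the 3T3-L1 signal was lower, which the choice of the bins fixes, and the values are a description. Bins at 0.5 Mb from a member, and not members themselves, had a median of 0.14 over both 3T3-L1 arrays (52 bins), those at 1 to 2 Mb 0.081 (150 bins) and those at 2.5 to 5 Mb 0.080 (253 bins), against 0.043 over all 4047 bins. The surroundings out to 5 Mb were thus above the general level as well, and not only in 3T3-L1 cells. In the Ifng T cell arrays the medians of the same bins were 0.058 at 0.5 Mb, 0.090 at 1 to 2 Mb and 0.082 at 2.5 to 5 Mb, against 0.037 over all bins. Of the bins at 0.5 Mb, 53.8% were at 0.1 or more in both 3T3-L1 arrays, against 8.13% of all bins.

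In T cells most of the bins were lower than their surroundings. Against the mean of the other bins 0.5 to 2 Mb away, 35 of the 43 bins were lower in the mean of the 8 Ifng T cell arrays (81.4%), with a median difference of -0.029, while 52.3% of the 4004 other bins and 50.6% of the 1013 other bins in the last 25% of a chromosome were lower than theirs. For the 8 Il4 arrays 30 of the 43 were lower (69.8%, against 51.8% of the other bins). In each of the 16 T cell arrays more of the bins were lower than higher, 25 to 33 of 43. In the 3T3-L1 arrays all 43 were higher than their neighbours, by a median of 0.17, which follows from the choice. Within the last 25% of chromosomes, the 35 bins there had a median Ifng T cell level of 0.044, against 0.071 for the 1013 others. The count of 35 was 30 to 37 with 1 Ifng T cell group left out, with extreme probes left out or with the median of the probes.

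**Figure D5:**
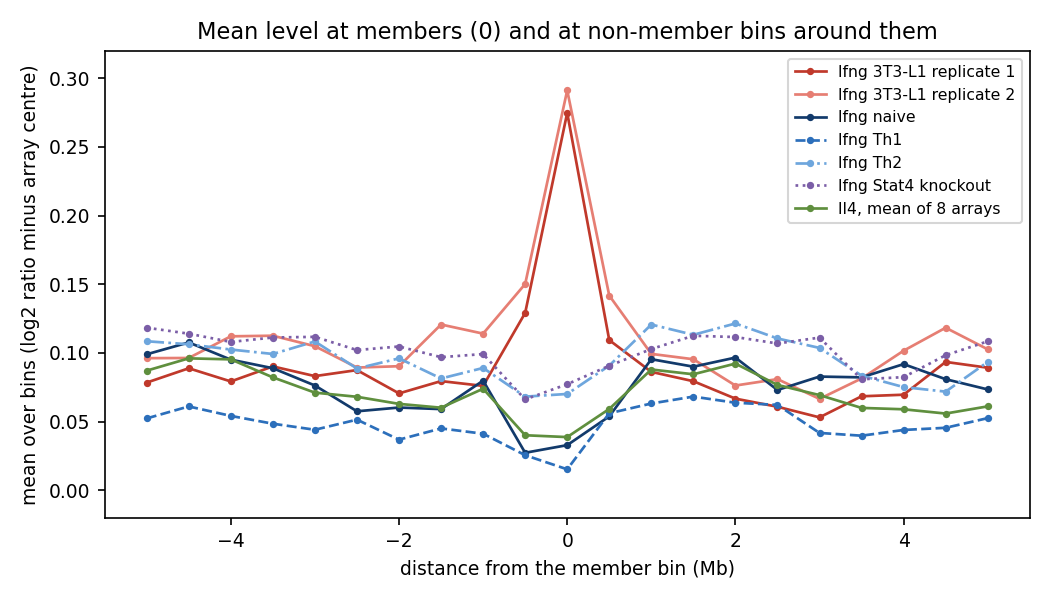
Mean level (log2 ratio minus array centre, vertical axis) of the 43 bins at distance 0 and of the bins around them that are not on the list (horizontal axis, Mb), for each 3T3-L1 array, each Ifng T cell group and the mean of the 8 Il4 arrays. At 0 the 3T3-L1 arrays reach 0.27 and 0.29, which the choice of the bins fixes, and the means of the Ifng T cell groups are 0.015 to 0.077, against 0.064 to 0.12 at 2 Mb to the right.

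The bins lay in bands with more genes than the average bin, at a similar median probe count but with a larger share of sparsely covered bins. They held a median of 82 probes, against 78 over all bins, and 7 of them (16.3%) had under 60 probes, against 6.42%. By cytogenetic staining, 18 (41.9%) lay in unstained bands, which tend to be gene-rich, against 41.4% of all bins, and 19 (44.2%) in the lightest stained class, against 17.3%. In the darkest class, which tends to be gene-poor, lay 5 (11.6%), against 28.9%. The bands of the 43 bins had a median of 8.15 protein-coding genes per Mb, against 6.60 for all bins. Stain and gene density vary with position along the chromosome, and how far position carries these shares was not tested.

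Genes could be placed only by band, because the gene table is of another build than the arrays, so a gene named here need not lie in a bin of the list. The 43 bins fall in 22 of 319 bands, which hold 8.23% of the 4047 bins. Of 12 fibroblast and adipocyte genes that could be placed on these chromosomes, 1 lay in such a band: Pparg, the nuclear receptor that drives adipocyte differentiation, in 6qE3, the band of the highest single-bin run. Of 13 genes of the T helper programme 1 did, Maf, a transcription factor that promotes Il4 transcription, in 8qE1. Of 8 naïve and pan-T cell genes 1 did, Lck, the kinase of proximal T cell receptor signalling, in 4qD2.2. Of 5 housekeeping genes 1 did, Actb, in 5qG2, a band with 4 of the 43 bins. Each list thus had 1 gene in a band with a bin high in 3T3-L1 cells, the fibroblast list no more than the others.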

How the data were processed

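The deposited values are log2 ratios of 4C DNA (Cy5) over HindIII- and Csp6I-cut genomic DNA of matching cells (Cy3), per the labels' protocols; the base, taken as 2, and the background correction and build are not given in the sources used here. In 7 of 9 replicate pairs over 99.5% of sorted values were equal within 0.011, and in Ifng Th1 and Il4 Th2 42.8% and 10.8% were. The replicates of those 7 pairs thus share a distribution of values, while groups differ in scale. The highest 5% of probes started at 0.575 and 0.565 in Ifng naïve cells and at 0.775 and 0.76 in the Stat4 knockout. The tests take their error from differences between replicates, which a shared distribution can narrow, and the effect on the p-values was not tested. Each array was centred on its median of probes off the bait chromosome (off both in the joint fit), with no other normalization, and averaged in 500-kb bins of 20 or more probes. Tests on T cell groups used limma 3.58.1 (R 4.3.3; lmFit and eBayes, two-sided), on 8 arrays per bait or 16 jointly, with Benjamini-Hochberg adjustment over 5026 bins at 0.05; the 3T3-L1 arrays stayed out because they chose the bins. The fits were tested on simulated data. The members and lists were chosen with earlier results of these data known. Named are the 5 highest and 5 longest runs, the 5 highest and 5 lowest bins in Ifng T cells, per test up to 5 called bins each way or, under 5 calls, the 3 smallest p, and 3 bins on each side of the limit; all others are given by position. Genes were placed by band (circlize 0.4.16), with the RefSeq table of GRCm38.p6, at least 500 kb from a band's edge. The number of arrays limits the precision.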

Additional observations from a re-analysis of the deposited data

Results flagged for a closer look

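For chr13:96500001-97000000 the change from naïve to Th1 differed between the baits by -0.37 (SE 0.073, adjusted p = 0.0065 with limma), which is a difference between groups under the same contrast. The Ifng arrays went from 0.23 and 0.27 to 0.059 and 0.074, and the Il4 arrays from 0.046 and 0.043 to 0.21 and 0.24, so the arrays of the groups do not overlap for either bait. The sign was the same for all alternatives run, with values of -0.19, with the median of the probes, to -0.39. The difference did not pass with that median, with arrays scaled by their spread, with quantile normalization or with extreme probes left out (adjusted p = 0.110 to 0.269 with limma).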

How the results depend on the processing

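The 8 tests of level and 11 of change on the 43 bins were repeated with other settings. Apart from these tests, 3 checks were added after the data were seen. They were the share in the last 25% of chromosomes and the T cell level under other rules, and the neighbours with groups left out. The comparison with neighbours was itself not among the planned results. The counts below, also those with 1 array left out, are of the 43 bins alone. The share of all bins under the same setting is not given, so a change in a count need not be particular to the 43 bins. With arrays scaled by their spread, the bins above the centre numbered 2 in Ifng naïve, 1 in Ifng Th1, 7 in the Stat4 knockout and 4 in the Stat6 knockout. With quantile normalization they numbered 3, 5 and 4 in Ifng naïve, the Stat4 and the Stat6 knockout and 3 in Il4 Th2. With the median of the probes they numbered 4 in Ifng naïve and 0 in the Stat4 knockout, Il4 naïve, Il4 Th1 and the Stat6 knockout, and without extreme probes 0 in Il4 naïve. For Th1 against naïve, 0 changed with scaling, quantile normalization or the serial series as a block, and 1 with the median or without extreme probes. For Th1 against Th2, 0 changed with scaling, without the bait chromosomes, without extreme probes or with the serial block. Without extreme probes, chr19:3000001-3500000 changed in the Stat4 knockout against Th1. A different bin, chr4:61000001-61500000, changed there against naïve cells and against Th2. Against naïve cells, 1 bin changed in the knockout without the bait chromosomes and 2 with trend and robust settings. For Ifng against Il4 in naïve cells, 0 differed with scaling, without the bait chromosomes, without extreme probes, with the groups alone, with the median or with quantile normalization. In Th1, 0 differed without the bait chromosomes or with the median and 2 with quantile normalization. For the bait difference of Th1 against naïve, 0 passed with scaling, the median, quantile normalization or without extreme probes. The replicate block gave 2 bins for Th1 against naïve, 1 for Th1 against Th2, 1 each for the baits in naïve and Th1 and for the bait difference of Th1, and 0 for the rest, as without it; same-numbered arrays share only a number, and over 28 group pairs their deviations from the group means correlated at -0.39 to 0.46, with 11 pairs over 0.1. Limits of 0.15, 0.25 and 0.3 gave 100, 16 and 8 bins, and the median of the probes gave 7. With that median, the median level of the 43 bins was 0.145 in 3T3-L1, -0.013 in Ifng Th1, 0.018 in Ifng Th2, -0.005 in the Stat4 knockout, 0.035 in Il4 Th1, 0.00 in Il4 Th2 and -0.00125 in the Stat6 knockout. In 3T3-L1 it was 0.24 without extreme probes and 0.35 with scaling.

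Leaving out 1 array at a time gave 2 to 8 bins above the centre in Ifng naïve, 0 in Th1, 4 to 16 in Th2, 5 to 12 in the Stat4 knockout, 0 to 1 in Il4 naïve, 0 to 11 in Il4 Th1, 0 in Il4 Th2 and 1 to 9 in the Stat6 knockout. It gave 0 to 2 changed bins for Th1 against naïve and for the baits in Th1, 0 to 1 for Th1 against Th2, the Stat4 knockout against naïve, the baits in naïve cells and the bait difference of Th2, 1 to 2 for the bait difference of Th1 and 0 for the other 4 comparisons. The list had 84 to 104 bins when the rule used 1 3T3-L1 array. The median level of the original 43 bins in the array left of each group was 0.0088 to 0.045 in Ifng naïve, 0.0075 to 0.022 in Th1, 0.057 to 0.065 in Th2, 0.062 to 0.081 in the Stat4 knockout and 0.25 to 0.28 in 3T3-L1. For the Il4 bait it was -0.027 to 0.033 in naïve cells, 0.054 in Th1, 0.0055 to 0.049 in Th2 and 0.028 to 0.069 in the Stat6 knockout.

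Of 1198 alternative values of single named bins, 1059 kept direction and side of the threshold, 119 lost and 15 gained the call, and 5 reversed, all with the median of the probes: the naïve level of chr13:97000001-97500000 at -0.041, its change from naïve to Th2 at 0.016 and its Ifng minus Il4 difference in naïve cells at -0.039, the Th1 level of chr13:96500001-97000000 at -0.013, and the Stat4 knockout level of chr4:61000001-61500000 at -0.045. The cause of these shifts was not tested. The 1198 values belong to 68 named tests, of which 33 passed, and only those 33 could lose a call. The share in the last 25% of chromosomes was 72.6% to 87.5% over the rules tried.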
